A study of Mus musculus with 22 samples.

Results

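Constant enhancers inside genes are described here in G1ER (G1E-ER4) cells, a mouse erythroid progenitor line. They were chosen from ChIP-seq peak lists by one rule. The 10 lists of H3K27ac peaks were merged where they touched, which gave 24299 regions. A region was kept if it had a peak in all 10 lists, held no transcription start site (TSS) of a protein-coding transcript, met no peak in any of the 10 lists of H3K4me3, and overlapped the body of a protein-coding gene. This left 1395 regions, 5.74% of all merged regions and 10.6% of the 13217 with a peak in all 10 lists. The rule thus used the presence of both marks, and the absence of H3K4me3 and of a protein-coding TSS from these regions is no result. A TSS of another biotype could be present.

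All lists come from the same clonal line, which lacks *Gata1* and carries GATA1-ER, a fusion of GATA1 to the estrogen receptor's ligand-binding domain. The cells were grown with stem cell factor (SCF) and erythropoietin, and β-estradiol, which activates GATA1-ER and starts erythroid maturation, was given for 0, 2, 6, 12, or 24 h. There were 2 lists per histone mark at each of these 5 time points and, for the start and the end of the course, a single list of CTCF, a zinc finger protein found at the anchors of chromatin loops. The study describes the 2 lists of a time point as independent experiments in this line, so the p-values below measure the spread between experiments on a single line. Promoters were read as the 2 kb either side of the annotated start of a gene. Starts elsewhere in a gene were not counted, so a promoter without a peak is not shown to be inactive. At the promoters of erythroid marker genes, 11 of 12 had an H3K4me3 peak in at least 1 list (*Tal1* had none) and 7 had an H3K27ac peak. H3K4me3 was present at 0 of 6 T and B cell, 0 of 4 hepatocyte, 0 of 4 neuron, and 0 of 4 fibroblast markers. The H3K27ac lists held 17247 to 18333 peaks, from 1409 to 1421 of them in these regions. They give positions and scores but no read counts, so the depth behind them is unknown.

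H3K27ac, acetylation of lysine 27 of histone H3, is laid down by p300 and CBP at active promoters and enhancers, whereas H3K4me3 is concentrated at promoters. Many enhancers lie in introns, of the gene they act on or of another gene. In erythroid cells such elements are typically bound by GATA factors together with TAL1, which reads an E-box, and their recognition sequences are often found a fixed distance apart.

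The sequences below show GATA words in 8 of the regions, with such an E-box part in 3 of them. These are the highest-scoring region, 4 in genes of blood cell biology, 1 in the gene with most regions of a single locus, and 1 each of the largest increases and decreases in length described below. The regions shown for *Sgms1*, *Runx1*, and *Steap3* were also called longer at 24 h. Each is the stretch of 160 bases with the most GATA words in the middle of the region (in a gene with several regions, of the one with the highest score percentile), in the plus strand of the RefSeq GRCm38 sequence. Capitals mark the GATA words, which are AGATAA or AGATAG and TGATAA or TGATAG, or their reverse complements. They also mark CTG (or CAG on the other strand) where it lies 7 or 8 bases before such a word, called a composite here. The stretches lie at chr3:23928008-23928167 in intron 11 of *Naaladl2*, chr19:32157172-32157331 in intron 6 of *Sgms1*, chr16:92764616-92764775 in intron 2 of *Runx1*, chr7:115895122-115895281 in intron 2 of *Sox6*, chr1:120231427-120231586 in intron 5 of *Steap3*, chr7:97269905-97270064 in intron 2 of *Gab2*, chr14:54573436-54573595 in intron 2 of *Ajuba*, and chr7:81236589-81236748 in intron 1 of *Pde8a*.
Naaladl2: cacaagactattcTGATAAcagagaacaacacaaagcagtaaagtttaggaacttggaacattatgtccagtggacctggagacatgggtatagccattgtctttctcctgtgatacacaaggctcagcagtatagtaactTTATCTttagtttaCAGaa
Sgms1: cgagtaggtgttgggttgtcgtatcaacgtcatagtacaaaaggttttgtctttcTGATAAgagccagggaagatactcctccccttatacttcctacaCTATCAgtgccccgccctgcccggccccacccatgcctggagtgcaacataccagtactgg
Runx1: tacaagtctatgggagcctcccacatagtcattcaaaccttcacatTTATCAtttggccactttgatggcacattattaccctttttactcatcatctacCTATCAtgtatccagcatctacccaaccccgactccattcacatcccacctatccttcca
Sox6: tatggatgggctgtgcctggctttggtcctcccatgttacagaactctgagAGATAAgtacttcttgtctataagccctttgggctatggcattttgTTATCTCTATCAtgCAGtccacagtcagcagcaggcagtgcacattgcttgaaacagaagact
Steap3: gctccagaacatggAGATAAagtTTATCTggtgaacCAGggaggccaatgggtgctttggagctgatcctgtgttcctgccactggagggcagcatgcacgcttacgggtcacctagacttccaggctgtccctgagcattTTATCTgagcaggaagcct
Gab2: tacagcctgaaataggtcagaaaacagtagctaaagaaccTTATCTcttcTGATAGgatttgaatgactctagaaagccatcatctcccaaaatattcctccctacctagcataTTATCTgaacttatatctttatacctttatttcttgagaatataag
Ajuba: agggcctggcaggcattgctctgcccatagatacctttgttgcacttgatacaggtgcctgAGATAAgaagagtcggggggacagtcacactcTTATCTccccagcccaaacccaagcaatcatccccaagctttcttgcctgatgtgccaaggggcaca
Pde8a: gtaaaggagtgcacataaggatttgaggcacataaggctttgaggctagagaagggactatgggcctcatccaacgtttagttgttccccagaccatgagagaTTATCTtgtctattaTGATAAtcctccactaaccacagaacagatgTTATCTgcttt

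The *Sox6*, *Steap3*, *Gab2*, and *Pde8a* stretches hold 3 GATA words each, and those of *Naaladl2*, *Sox6*, and *Steap3* hold 1 composite each. These stretches were picked for their GATA words, and each holds at least 2. Stretches chosen in the same way but not printed held 1 word in *Zfpm1*, *Sptb*, *Meis1*, *Frmd6*, and *Rbfox2*. They held 0 in *Fopnl*, 2 in *Wdr75*, and 3 in *Tbxas1*. How common the words are was therefore counted in a fixed window, the 300 bp at the centre of the stretch covered in all 10 lists, or of the region where no base was covered in all of them. In that window 816 of the 1395 regions (58.5%, 95% Wilson interval 55.9 to 61.1) had a GATA word on either strand, whereas the same words read backwards, which keep the base composition, were found in 36.1%. The share was 40.5% over all merged regions and 18.6% in the 7784 constant regions with a protein-coding TSS. It was 58.5% (55.1 to 61.9) in the 805 constant regions between genes that also lack H3K4me3 and such a TSS. Regions inside and between genes could therefore not be told apart by this share. Windows 3 kb beyond the ends of the regions had a GATA word in 42.9% and a reversed one in 38.5%.

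GATA words were densest at the centre. In bins of 200 bp they numbered 3.19 per kb next to the centre and 2.07 and 2.04 per kb in the outermost bins, centred 2900 bp away. There were 579 windows with no word, 481 with 1, and 335 (24.0%) with 2 or more, of which 1 held 6. The composite was present in 114 regions (8.17%, 6.85 to 9.73), against 4.18% of all merged regions and 1.44% of those with a TSS. Its share was alike in constant regions between genes (7.70%, 6.05 to 9.75) and in those inside genes with H3K4me3 (7.07%, 5.83 to 8.55). Its spacing stood out among the 14 that were counted, from 2 to 15 bases between CTG and the GATA word. There were 72 matches at 8 bases and 47 at 7 bases, and from 23 to 42 at each of the other spacings. A match is a description of the letters and not evidence of binding.

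**Figure D1:**
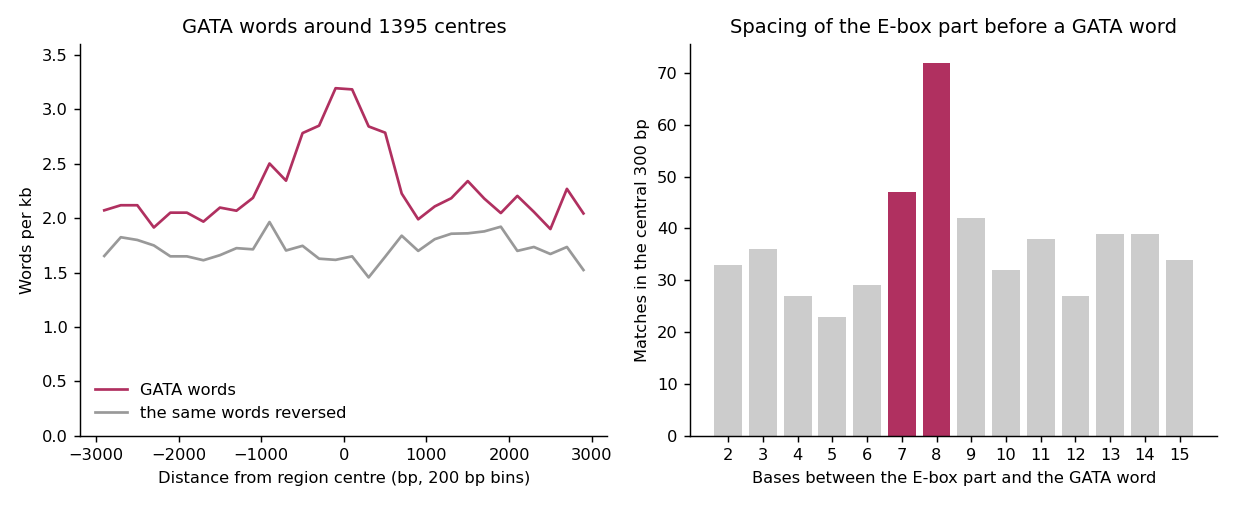
Left, GATA words (red) and the same words reversed (grey) per kb, in 200 bp bins by distance from the centre of the 1395 regions. The red line reaches 3.19 per kb at the centre and the grey line stays below 2 per kb. Right, matches in the central 300 bp by the number of bases between CTG and the GATA word, with the highest bars at 8 bases (72) and 7 bases (47).

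Other words were searched on both strands of the same windows. The E-box CAGATG was present in 23.3% of the regions (reversed 11.8%, all merged regions 18.4%), and the ETS word AGGAAGT in 12.3% (6.52% and 9.71%). The RUNX word TGTGGTT was found in 9.46% (4.44% and 6.71%), and TGANTCA, read by AP-1 and NF-E2, in 11.2% (8.03% and 8.60%). The KLF word CCNCACCC reached 10.9% (8.39% and 13.3%) and the STAT word TTCNNNGAA 9.61% (11.5% and 8.33%), so the STAT word was less frequent than its own reverse. In windows 3 kb beyond the ends of the regions the E-box was found in 21.5% (reversed 12.7%) and the RUNX word in 7.67% (4.73%). Both thus also exceeded their reverse outside the regions, and the E-box was little more frequent inside. The other shares there were 7.46% (ETS), 8.60% (TGANTCA), 7.81% (KLF), and 8.60% (STAT). The complement of CAGATG ends in CTG and can supply that part of a composite, and every composite holds a GATA word.

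By median, the regions scored below the constant classes with H3K4me3 or a TSS and close to the class between genes that lacks both. They were 627 to 10218 bp long, with a median of 3077 bp, compared with 2751 bp between genes and 3292.5 bp with a TSS. Scores are not comparable between libraries, so each peak was ranked within its own list, where 100 is the highest. The median over the 10 lists was 35.8 for the typical region (quartiles 27.5 and 45.5), compared with 37.3 between genes, 49.1 in the 1372 constant regions inside genes that met an H3K4me3 peak, and 76.1 with a TSS. Over all merged regions it was 33.1, and 10.7 in those without a peak in every list. The quartiles between genes were 28.7 and 47.8. In both lists at 24 h the order of these 2 classes was the reverse, with medians of 35.7 and 33.3 inside genes and 34.9 and 32.1 between genes. A median of 47.2% of the region was covered in all 10 lists, and in 20 regions no base was. One uninterrupted peak in each list made up 92.0% of the regions. At the edge of the rule, 404 regions that met its other terms had a peak in 9 lists and covered a median of 1614.5 bp (score percentile 21.7), whereas the regions inside it covered 2271 bp (35.8). The list that lacked such a peak was most often the second at 24 h (95 regions) or the first at 0 h (71). On the other side of the rule, 172 regions met an H3K4me3 peak in 1 list only, and 672 met one in all 10.

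The highest score percentiles belonged to 6 regions. The region at chr3:23925620-23930660 in intron 11 of *Naaladl2* led with 92.2, and it lay 855 kb from the nearest protein-coding TSS. It covered 4420 and 3663 bp in the lists at 0 h, 4395 and 5009 bp (2 h), 4806 and 4885 bp (6 h), 4377 and 4405 bp (12 h), and 3615 and 4353 bp (24 h). The lists at 0 h and 24 h overlapped, and both lists at 6 h were above all lists at 0, 12, and 24 h. Next came regions in *A830018L16Rik* (89.5), in *Fbln2* (87.4), which encodes the matrix protein fibulin-2, in *Tmem67* (82.7), which encodes a protein of the ciliary transition zone, in *Mical3* (79.2), which encodes an actin-oxidizing enzyme, and in *Gm8369* (78.7). None of the 6 passed the test of 24 h against 0 h that is described below (limma adjusted p from 0.19 to 1). The longest stretches covered in every list were found in *Lpin2*, which encodes a phosphatidate phosphatase (6943 bp), *Nsmaf*, which encodes an adaptor of the TNF receptor (6919 bp), *Mknk1*, which encodes a kinase of the cap-binding protein eIF4E (6417 bp), and *Clcn2* with *Fam131a* (6179 bp). A long stretch did not need a high score, and *Nsmaf* had a percentile of 8.01, the second lowest of the 1395.

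Next, the positions within the genes were examined. The centre lay in no protein-coding exon in 1306 regions (93.6%), although 580 regions (41.6%) overlapped an exon somewhere. Of 1334 regions with a single host gene, 1159 (86.9%) were centred in an intron of its representative transcript, 69 in an exon, and 106 beyond its ends. The first intron held 23.9% of the 1159 and the fourth or a later intron 50.3%. In transcripts with several introns, 23.2% of regions (20.9 to 25.8) were in intron 1, and intron 1 made up on average 26.9% of the intron length. Along the transcript from 5′ to 3′, cut in 4 equal parts, the shares were 18.8%, 28.7%, 25.98%, and 26.5%. The median distance from the start of the host transcript was 37157 bp. The nearest protein-coding TSS of any gene was a median of 18687 bp away (29715 bp for constant regions between genes), and it was within 10 kb for 26.6%.

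The 1395 regions fell into 1157 of 21839 protein-coding genes (5.30%). Of these genes, 956 held 1 region, 141 held 2, 42 held 3, 14 held 4, and 4 held 5 or more. Host genes were long, with a median of 71398 bp against 17376 bp over all genes. Within 2 kb of their start, 77.5% of hosts had an H3K4me3 peak in all 10 lists, against 43.7% of all genes, and 20.5% had none in any list. The difference was present among genes of like length. Of genes over 100 kb, 33.9% of those with H3K4me3 in all 10 lists at the promoter held a constant intragenic region, compared with 7.28% of those with none. From 30 to 100 kb these shares were 15.3% and 3.39%, and under 10 kb they were 0.570% and 0.455%.

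*Gm20388*, a gene model of 4434882 bp that reads through many genes on chromosome 8, met 10 regions, most of which also lie in a shorter gene. Of ordinary genes, *Sgms1*, which encodes sphingomyelin synthase 1, held the most, with 8 regions spread from 15.9 to 239 kb after its start, in introns 1, 2, 5, and 6. Its promoter had both marks in all lists. The growth factor receptor gene *Igf1r* held 5 regions, 4 of them in introns 1 and 2 and within 57.6 kb of its start, and the fifth at 237 kb. In *Dennd1a*, which encodes an exchange factor for the small GTPase Rab35, all 5 lay between 74.2 and 162 kb in introns 2 to 5. The 4 regions of *St3gal1*, a sialyltransferase gene, lay within 56.01 kb of its start. *Arvcf*, a gene of the p120 catenin family, was 58895 bp long and held 4 regions. Neither mark had a peak within 2 kb of the annotated *Arvcf* start in any list.

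**Figure D2:**
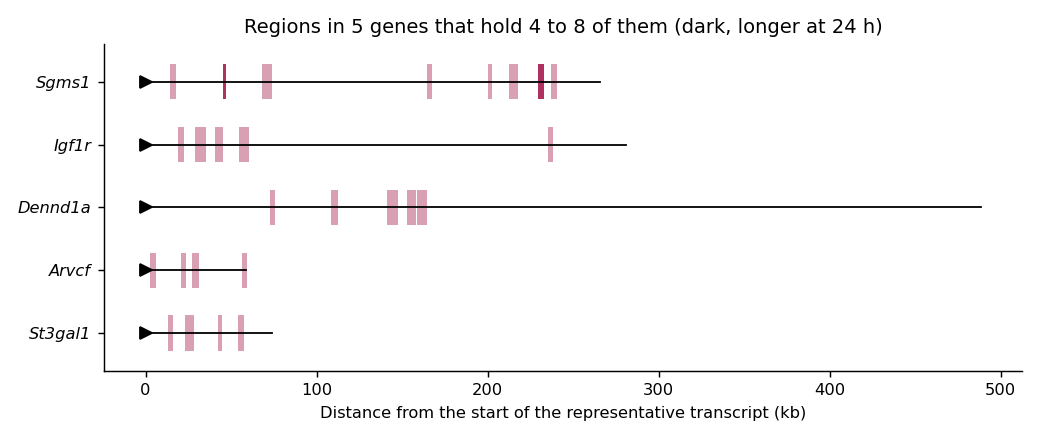
Positions of the constant regions in 5 genes, drawn to scale as distance in kb from the start of the representative transcript (triangle, black line its length), with box widths equal to region lengths. *Sgms1* carries 8 boxes over its length, and its 2 dark boxes are the only ones in these genes that passed the test of 24 h against 0 h.

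The covered length, the number of bases of a region under a peak, was then followed over time. The median region covered 2152 and 2095 bp in the lists at 0 h, 2277 and 2348 bp (2 h), 2334 and 2357 bp (6 h), 2302 and 2373 bp (12 h), and 2327 and 2096 bp (24 h). The means ± SD (n = 2) were 2124 ± 40.3 bp before estradiol, 2346 ± 16.3 bp after 6 h, and 2212 ± 163 bp after 24 h. Every list from 2 to 12 h was above both lists at 0 h, while at 24 h the first list was above both and the second lay between them. For regions between genes these means were 2031 ± 56.6, 2111 ± 12.0, and 1841 ± 107 bp, and both of their last lists (1916 and 1765 bp) were below all others. For those with a TSS the first and last means were 2600 ± 58.0 and 2753 ± 88.7 bp.

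**Figure D3:**
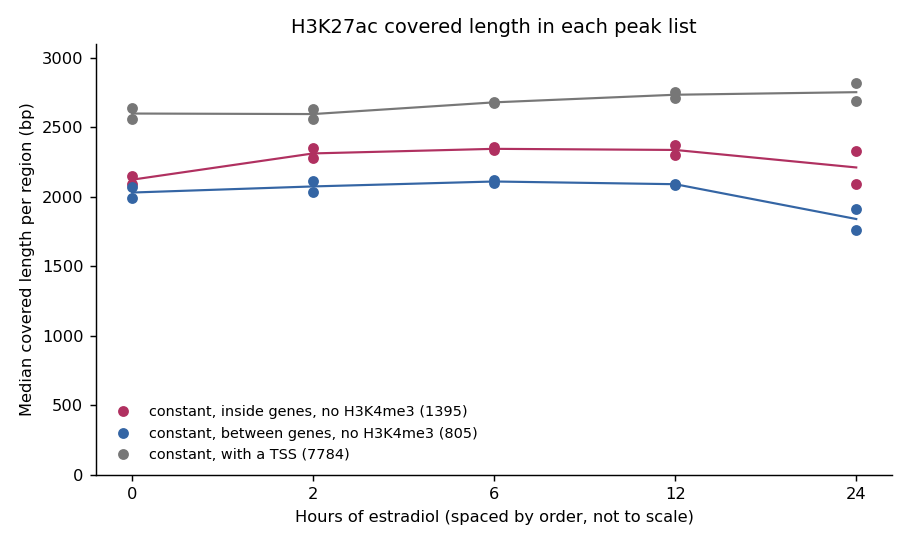
Median covered length per region in bp for each H3K27ac list (points, 2 per time point) with the mean per time point (lines), by hours of estradiol in order. The constant regions inside genes (red) start at 2124 bp and end at 2212 bp, those between genes (blue) end lowest at 1841 bp, and those with a TSS (grey) lie above both.

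To find the regions that changed, log2(covered bp + 200) was compared between 24 h and 0 h with limma over 21011 merged regions (those found in 2 or more lists), and differences below are on that scale. With the Benjamini-Hochberg adjusted p required to be under 0.05, 74 of the 1395 regions (5.30%) were longer at 24 h, against 3.30% of all regions tested, and 49 (3.51%) were shorter, against 3.02%. Over all 13217 constant regions the shares were 2.48% longer and 2.03% shorter. Both shares of the intragenic regions were above these, but 7784 of the constant regions held a TSS, with 2.06% longer and 0.527% shorter. Of the 1372 constant regions inside genes that met an H3K4me3 peak, 3.13% were longer and 3.79% shorter. Their shorter share was thus above the 3.51% found here. Of the constant regions between genes, 22 of 805 (2.73%) were longer and 55 (6.83%) were shorter. The median difference was 0.03 over the 1395 regions and -0.12 between genes. No difference between classes was tested. After scaling each list by its median peak length the split inside genes became 64 longer (4.59%, against 3.06% of all regions) and 67 shorter (4.80%, against 3.52%). With only the 4 lists at 0 h and 24 h fitted, both shares were below those of all regions. There 48 regions were longer (3.44%, against 5.02%) and 26 shorter (1.86%, against 5.27%). The counts depended on single lists, as did those over all regions tested. The shorter share was below that of all regions whichever list was left out, except the first at 24 h (5.23%, against 4.69%). It was 3.44%, against 3.65%, without the first at 2 h, for example. With the second list at 0 h left out, the longer share was also below that of all regions. Without the second list at 0 h 46 regions were longer and 32 shorter, without the first at 0 h 24 were shorter, and without the first at 24 h 42 were longer and 73 shorter, which turned the larger direction. Of the 74 longer and 49 shorter regions, 27 and 18 kept their call whichever of the 10 lists was left out.

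A slope over the order of the 5 time points was called positive in 65 regions (4.66%, against 2.19% of all regions) and negative in 39 (2.80%, against 1.35%). After scaling these were 51 (3.66%, against 1.75% of all regions) and 52 (3.73%, against 1.75%). Of the unscaled calls, 42 were among the 74 longer regions and 27 among the 49 shorter ones. These slopes rested on the first and last time points, since leaving out a single list at 0 h or 24 h left 4 to 12 positive and 4 to 7 negative calls. Slope calls over all regions fell as well, from 460 positive and 284 negative to 19 to 70 and 11 to 30. The fall is thus not particular to the regions inside genes. The counts inside genes also fell without the first list at 2 h, to 42 and 19 (273 and 143 over all regions). Without the second, the negative calls fell to 22 (160 over all regions).

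**Figure D4:**
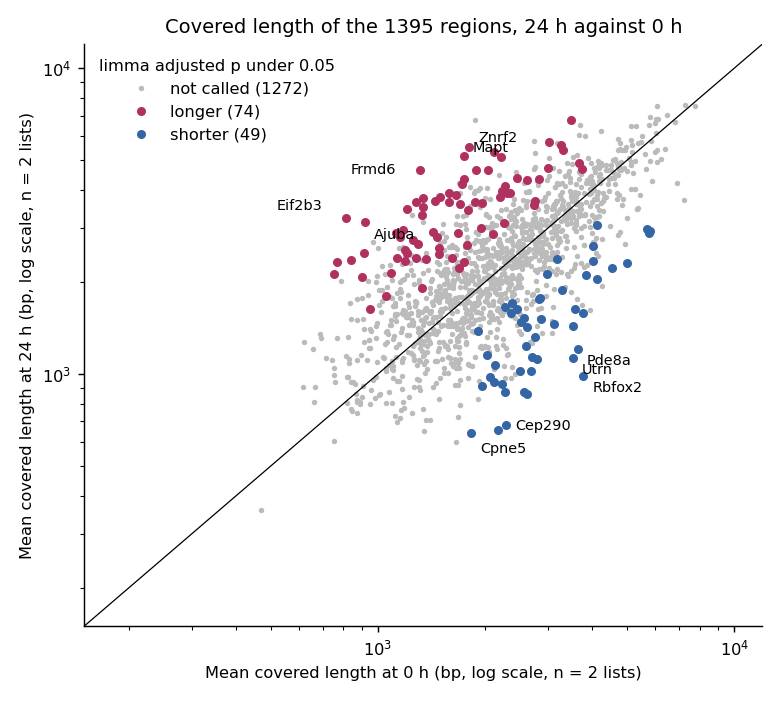
Mean covered length at 24 h against 0 h (bp, log axes, n = 2 lists each) for the 1395 regions, with the line of equality. Regions called longer (74, red) lie above the line and those called shorter (49, blue) below it, and the 10 named regions have the largest log2 differences among them.

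The 5 largest increases were in genes of varied function. In intron 2 of *Ajuba*, which encodes a LIM protein of cell adhesion and mitosis, the region covered 959 and 883 bp (0 h), 1547 and 2437 bp (2 h), 2770 and 2742 bp (6 h), 2380 and 2812 bp (12 h), and 3261 and 3010 bp (24 h). All lists from 2 h on were above both lists at 0 h, and the difference of 24 h from 0 h was 1.57 (SE 0.19, limma adjusted p = 0.0043). The region in intron 1 of *Frmd6*, which encodes a FERM protein, 7.29 kb from its start, covered 1508 and 1113 bp (0 h), 2579 and 3860 bp (2 h), 3836 and 4219 bp (6 h), 4734 and 3169 bp (12 h), and 4599 and 4668 bp (24 h) (1.69, SE 0.25, adjusted p = 0.0087). It did not pass without the second list at 0 h or at 24 h (adjusted p = 0.058 and 0.052). In *Eif2b3*, which encodes a subunit of the exchange factor for eIF2, the covered length was 809 and 816 bp (0 h), 1382 and 1676 bp (2 h), 3003 and 1802 bp (6 h), 1913 and 1535 bp (12 h), and 3879 and 2612 bp (24 h) (1.74, SE 0.27, adjusted p = 0.012). It was lost without either list at 0 h or the first list at 24 h.

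The region in intron 1 of *Znrf2*, an E3 ubiquitin ligase gene, covered 1908 and 1702 bp (0 h), 4915 and 4014 bp (2 h), 5950 and 5852 bp (6 h), 4076 and 4403 bp (12 h), and 6738 and 4288 bp (24 h) (1.48, SE 0.20, adjusted p = 0.0067), but it did not pass when only the lists at 0 h and 24 h were fitted (adjusted p = 0.12). In intron 4 of *Mapt*, which encodes the microtubule protein tau, it covered 1819 and 1663 bp (0 h), 3316 and 2242 bp (2 h), 2264 and 3454 bp (6 h), 2867 and 2839 bp (12 h), and 5589 and 4756 bp (24 h) (1.47, SE 0.23, adjusted p = 0.012). The *Mapt* region did not pass without either list at 0 h or the first at 24 h. In each of the 5 regions the lists at 2 h were already longer than those at 0 h.

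The 5 largest decreases all ended with their shortest lists at 24 h. In intron 2 of *Rbfox2*, which encodes a splicing regulator, the region at chr15:77219338-77223510 covered 3729 and 3804 bp (0 h), 3769 and 3983 bp (2 h), 3755 and 3780 bp (6 h), 3272 and 3551 bp (12 h), and 1068 and 906 bp (24 h) (-1.74, SE 0.08, adjusted p = 0.00016). The region in intron 1 of *Pde8a*, a gene for a cAMP phosphodiesterase, covered 3818 and 3468 bp (0 h), 3629 and 3762 bp (2 h), 3459 and 3733 bp (6 h), 2378 and 2192 bp (12 h), and 1209 and 1208 bp (24 h) (-1.45, SE 0.07, adjusted p = 0.00022). In *Rbfox2* only 92 bp were covered without a break in all 10 lists. *Cep290*, a gene of the ciliary transition zone, had a region of 2310 and 2281 bp (0 h), 2426 and 2022 bp (2 h), 2142 and 1868 bp (6 h), 1929 and 1934 bp (12 h), and 726 and 637 bp (24 h) (-1.50, SE 0.12, adjusted p = 0.00095).

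In *Cpne5*, a gene of the copine family of calcium-dependent phospholipid-binding proteins, the covered length was 2199 and 2160 bp (0 h), 1568 and 1346 bp (2 h), 2063 and 2484 bp (6 h), 1544 and 1703 bp (12 h), and 705 and 610 bp (24 h) (-1.47, SE 0.14, adjusted p = 0.0016). In *Utrn*, which encodes utrophin, it was 4093 and 2952 bp (0 h), 3259 and 2454 bp (2 h), 3951 and 3258 bp (6 h), 1302 and 1596 bp (12 h), and 1088 and 1168 bp (24 h) (-1.47, SE 0.20, adjusted p = 0.0067). These 5 calls held whichever list was left out, but that of *Utrn* was lost when only the lists at 0 h and 24 h were fitted (adjusted p = 0.061). Each of the 5 regions still had a peak in both lists at 24 h, as the rule requires.

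**Figure D5:**
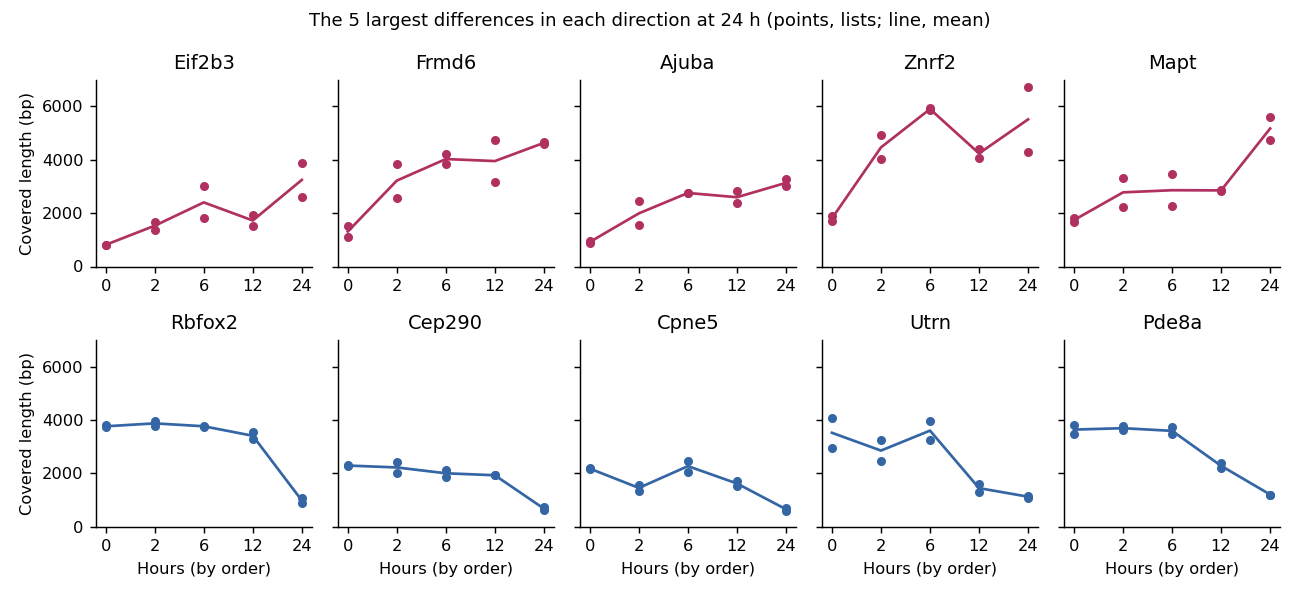
Covered length in bp in each list (points) and its mean (line) by hours of estradiol in order, for the 5 largest increases (red, upper row) and decreases (blue, lower row). The upper regions are longer from 2 h on, and *Rbfox2* and *Cep290* drop between 12 and 24 h.

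Genes with roles in blood cells were followed by lists of genes. Of 28 erythroid transcription factors and cofactors, 3 held a region. *Sox6*, which encodes a repressor of embryonic globin, held 3 in intron 2, *Runx1*, which encodes the master regulator of definitive blood formation, held 1, and *Zfpm1*, which encodes the GATA1 cofactor FOG1, met 1 at its 3′ end. The *Runx1* region covered 2266 and 2244 bp (0 h), 2365 and 2604 bp (2 h), 2784 and 2811 bp (6 h), 2505 and 2252 bp (12 h), and 3341 and 2877 bp (24 h) (0.43, SE 0.09, limma adjusted p = 0.045). This call was lost on leaving out any list but the second at 24 h. The *Zfpm1* region covered 2095 and 1776 bp (0 h) and 5182 and 2914 bp (24 h) and did not pass (0.94, SE 0.24, adjusted p = 0.081). The first *Sox6* region, at 107 kb, had 4376 and 2572 bp (0 h) and 1791 and 1912 bp (24 h) (-0.80, SE 0.29, adjusted p = 0.17). None of these 3 genes had an H3K27ac peak within 2 kb of its start in any list.

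Of 26 genes of heme synthesis and iron handling only *Steap3*, which encodes the ferrireductase of transferrin endosomes, held a region, in intron 5. It covered 1864 and 1723 bp (0 h), 2211 and 2497 bp (2 h), 3137 and 2872 bp (6 h), 3808 and 3745 bp (12 h), and 3817 and 3075 bp (24 h) (0.86, SE 0.11, adjusted p = 0.0055). Every later list was above both lists at 0 h, and the call held without any single list. Of 28 genes of the red cell membrane and skeleton, 6 held 7 regions (*Sptb*, *Epb41*, *Add2*, *Slc2a1*, *Mpp1*, and *Cd44*). In intron 32 of *Sptb*, the β-spectrin gene, the region covered 1938 and 1413 bp (0 h) and 2775 and 3014 bp (24 h) (0.74, SE 0.15, adjusted p = 0.034), and 7 of the 10 fits without 1 list lost this call. The other 6 regions of the list did not pass.

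Signalling through erythropoietin, SCF, and JAK-STAT had the highest share, 11 of 30 genes (36.7%, 21.9 to 54.5) with 15 regions, and these genes had a median length of 57654 bp. The chromatin regulators below were longer (median 78969 bp), and 16.7% of them held a region. *Gab2*, a docking protein gene acting below KIT, held 4 of the regions and *Jak1* held 2. *Kit*, *Stat3*, *Lyn*, *Grb2*, *Pik3cd*, *Inpp5d*, *Cbl*, *Vav1*, and *Spred2* held 1 each. None of the 15 passed at 24 h in either direction, and their median difference was 0.03, the same to 2 decimals as over the 1395 regions. The lowest adjusted p was that of *Vav1*, a signalling gene of blood cells, whose region covered 2313 and 1418 bp (0 h), 2704 and 2785 bp (2 h), 3111 and 3328 bp (6 h), 3595 and 3682 bp (12 h), and 3180 and 4127 bp (24 h) (0.92, SE 0.21, adjusted p = 0.056). All of its lists from 2 h on were above both at 0 h, and its slope over time order was called positive (limma adjusted p = 0.042). The *Jak1* region in intron 1 covered 3357 and 2867 bp (0 h) and 1860 and 1927 bp (24 h) and did not pass (-0.66, SE 0.16, adjusted p = 0.070).

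Among 29 myeloid, mast cell, and megakaryocyte genes, 4 held a region (*Erg* with 2, *Spi1*, *Meis1*, and *Tespa1*). The region of *Meis1*, a homeobox gene of blood stem cells, was called longer, with 1565 and 1173 bp (0 h) and 2396 and 2346 bp (24 h) (0.72, SE 0.13, adjusted p = 0.023), and the call was lost without either list at 24 h. At *Spi1*, which encodes PU.1, the region lay 6.27 kb upstream of the representative transcript and covered 2012 and 2200 bp (0 h) and 1840 and 1610 bp (24 h) (-0.26, SE 0.12, adjusted p = 0.27). Of 30 chromatin regulator genes, 5 held a region (*Ezh1*, *Ezh2*, *Hdac4*, *Arid1b*, and *Rcor1*), and of 24 genes of autophagy, mitochondrial clearance, and survival 4 did (*Bcl2l1* and *Tfeb* with 2 each, *Atg5*, and *Bcl2l11*). None of these 11 regions passed at 24 h. In *Bcl2l1*, the BCL-XL gene, the region nearer the 3′ end covered 1435 and 1620 bp (0 h) and 3771 and 2441 bp (24 h) (0.91, SE 0.21, adjusted p = 0.057). Of 30 genes of other tissues, 2 held a region (*Mbp* and *Magi2*), and neither passed.

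CTCF was not used by the rule. A CTCF peak met 246 of the regions at 0 h (17.6%, 15.7 to 19.7) and 346 at 24 h (24.8%, 22.6 to 27.1), and 230 had one in both lists. The shares over all merged regions were 25.3% and 31.0%, and those between genes 21.5% and 23.7%. There were 116 regions (8.32%, 6.98 to 9.88) with a CTCF peak at 24 h only and 16 (1.15%) at 0 h only. The CTCF list at 24 h was also the longer one, with 41473 peaks against 33193. Over all merged H3K27ac regions, 6.99% had CTCF at 24 h only, and between genes 32 of 805 (3.98%, 2.83 to 5.56) did. With 1 list per time no difference between the times could be tested.

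Of 248 CTCF peaks at 24 h that lay in the regions and overlapped a peak at 0 h, 27 (10.9%, 7.59 to 15.4) held the core CTCF motif in their central 300 bp. Of 115 peaks present at 24 h only, 0 did (upper Wilson bound 3.23%). Over the whole list at 24 h the motif was found in 17.7% of shared peaks and 6.24% of those at 24 h only. The RUNX word TGTGGTT was found in 37.4% (29.1 to 46.5) of the peaks at 24 h only that lay in the regions and in 22.6% (17.8 to 28.2) of the shared ones there. Over the whole list the word was found in 30.9% of peaks at 24 h only and in 14.1% of the shared ones. Peaks at 24 h only also had lower scores, with a median percentile of 16.5 in their list against 64.9 for the shared peaks.

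The highest-scoring CTCF peaks in both lists lay in 3 regions. The first met *Tbxas1*, the thromboxane synthase gene, and was centred upstream of its representative transcript. It had CTCF scores above 98.4% of the peaks at 0 h and 99.3% at 24 h, and there the core motif lies at chr6:38911365-38911404, printed on the minus strand with the motif in capitals.
Tbxas1: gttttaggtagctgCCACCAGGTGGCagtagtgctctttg
The H3K27ac region around it covered 2270 and 2587 bp (0 h) and 3534 and 3352 bp (24 h) (0.47, SE 0.15, limma adjusted p = 0.14). The next met *Wdr75*, a gene of ribosome biogenesis, and was centred outside its representative transcript. It covered 4217 and 4024 bp (0 h) and 3240 and 2914 bp (24 h) (-0.40, SE 0.08, adjusted p = 0.028). The third was in *Fopnl*, a centrosomal protein gene, and covered 3760 and 3573 bp (0 h) and 5029 and 4804 bp (24 h) (0.40, SE 0.06, adjusted p = 0.012). The call at *Wdr75* was lost without either list at 0 h or the second at 24 h, and that at *Fopnl* without the second at 0 h.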

How the data were processed

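ChIP-seq peak lists of G1ER cells were analyzed, and their groups, by antibody and time in β-estradiol, come from the sample titles. The authors aligned reads to mm10 with Bowtie2 (mm10 and Bowtie2 also stand in the submitters' processing notes), kept uniquely mapped reads, and called peaks in each library with MACS with its model step off, without pooling. The MACS version, control, and threshold, and all methods for CTCF, are not given in the sources used here. The deposited value of each peak is the caller's score, which cannot be compared between libraries. It served as a percentile within its list or, as an alternative, for a threshold. There are no counts, so depth is unknown, and whether a peak is called depends on depth and background. The labels also name a human build, whereas the positions run with mm10.

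Genes were taken from GENCODE M21 (GRCm38), and overlap meant at least 1 bp. The representative transcript was 1 per gene. Covered length was tested with limma 3.58.1 (trend) in R 4.3.3 on log2(covered bp + 200), using a mean per time point or else a slope over time order. Regions found in fewer than 2 lists were left out, and adjustment was over the remaining 21011. Simulated data were used to test the limma step. Motifs were searched on both strands of the RefSeq GRCm38 sequence, and shares have 95% Wilson intervals, which cover counting error only. Other steps used Python 3.11.15 with pandas 2.3.3 and numpy 2.4.6, and figures matplotlib 3.10.9. No comparison depended on replicate numbers, and the check of pairing is given with the alternatives.

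The regions, gene lists, and tests were chosen with earlier results of these data known. Named were the 6 regions with the highest median score percentile, the 4 with the longest stretch covered in all lists, the regions of the 6 genes holding most (ties by the shorter gene), the 5 largest differences in each direction past the threshold, up to 4 genes per role list by number of regions, and the 3 with the highest CTCF scores. Other genes of the role lists were named to complete a count, after their values were seen. Alternatives were other pseudocounts, minimum numbers of lists, score thresholds, scaling, merging, a replicate block, and leaving out each list.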

Additional observations from a re-analysis of the deposited data

How the results depend on the processing

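The number of regions was 1395 and lay between 1406 and 1491 when 1 list was left out of the rule. It was 350 when peaks scoring below the pooled median of their mark were dropped, and 2197 when H3K4me3 excluded a region only by covering at least 50% of it. With higher-scoring peaks only 423 of the regions entered the fit. Of these, 19 were longer at 24 h (4.49%, against 1.72% of all regions) and 34 shorter (8.04%, against 2.21%). Over time 1 lengthened and 1 shortened (0.236% each, against 0.253% and 0.0975%). With the 4 lists of the first and last times alone, 48 were longer (3.44%, against 5.02% of all regions) and 26 shorter (1.86%, against 5.27%). The same-numbered lists did not pair. The correlations of their deviations from the group means lay between -0.0427 and 0.0439 over the regions. A replicate block gave 41 lengthening regions (2.94%, against 1.30% of all regions) and 24 shortening ones (1.72%, against 0.728%). Leaving out single lists gave from 42 to 82 longer and from 24 to 73 shorter regions at 24 h, and from 4 to 51 lengthening and from 4 to 33 shortening regions. The larger direction at 24 h turned with the higher-scoring peaks, without the first list at 24 h, and when lists were scaled to a common median peak length (64 and 67). In each of these fits it also turned over all regions. There 176 were longer and 227 shorter with the higher-scoring peaks, and 643 and 740 after scaling.

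CTCF shares at 0 h and 24 h were 15.6% and 21.2% when at least 50% of the CTCF peak lay inside the region, 8.10% and 13.3% with the higher-scoring CTCF peaks, and 12.0% and 17.5% within the stretch covered in all 10 lists. The share with a GATA word was 82.0% in 600 bp, 99.5% in the whole region, and 61.6% among the regions scoring above their median. Leaving out 4 regions that lie only in *Gm20388* or *Gm37240*, an alternative added after the data were seen, moved no count by more than 1.5 times. None of the 10 regions with the largest differences changed direction under the alternatives run. Only that of *Pde8a* entered the fit with the higher-scoring peaks, so the others were not tried under that alternative. The cause of these shifts was not tested. The lists give no depth, so a region missing from a list cannot be told from one below its threshold.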

Other observations

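Of the regions within *Gm20388*, the one shared with *Piezo1*, which encodes a mechanically gated ion channel, was called longer, as was 1 that lies in no other protein-coding gene. The *Piezo1* region, in intron 1, covered 2870 and 3155 bp (0 h), 4476 and 4230 bp (2 h), 4809 and 5647 bp (6 h), 5246 and 5926 bp (12 h), and 5735 and 5757 bp (24 h) (0.89, SE 0.10, limma adjusted p = 0.0030). Every list from 2 h on was longer than both at 0 h. In *Sgms1*, the region 46.3 kb from the start covered 1035 and 1067 bp (0 h) and 1831 and 1765 bp (24 h) (0.68, SE 0.11, limma adjusted p = 0.014), and the one at 231 kb covered 2784 and 2735 bp (0 h) and 3629 and 3721 bp (24 h) (0.39, SE 0.05, adjusted p = 0.0075). The other 6 regions of *Sgms1* did not pass.

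The central window had a median GC content of 46.7%, against 62.0% in constant regions with a TSS, and CpG dinucleotides numbered a median of 9.41 per kb of region, against 31.3 with a TSS. Repeats made up a median of 21.6% of each region, compared with 25.5% between genes. A TSS of a noncoding gene lay in 53 of the regions (3.80%). When a TSS of a transcript of any biotype excluded a region, 1251 of the 1395 remained. In the central window, a GATA word was found in 67.6% of the regions longer at 24 h (56.3 to 77.1), 51.0% of the shorter ones (37.5 to 64.4), and 58.3% of those not called, with intervals that overlap. TGANTCA was found in 4.05% of the longer regions (3 regions, 1.39 to 11.3), 16.3% of the shorter ones (8.51 to 29.0), and 11.4% of those not called. These intervals overlap too, and the difference was not tested. The other words were also counted in these sets and are not given here.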
